A study of Homo sapiens with 6 samples.

Results

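The apolipoprotein L family was followed in U251 cells, a line established from a human glioblastoma, with and without tumor necrosis factor-α (TNF-α). Its members were taken by gene name, which gave all 6 genes, APOL1 to APOL6, of the 58735 genes measured by RNA-seq. The NC group (negative control, n = 3) received deionized water. The TNF-α group (n = 3) received TNF-α at 10 ng/mL for 24 h. Each group held 3 biological replicates of the same single line, with no other genetic change or agent named. The comparison addressed how the transcripts of these cells differed after a low dose of the cytokine.

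Apolipoprotein L proteins are mostly found inside cells, where they associate with membranes and lipids, and they carry pore-forming regions that resemble those of the BCL2 family. APOL1 is the secreted exception, travels on high-density lipoprotein and is best known as the factor of human serum that lyses trypanosomes. The genes lie together on chromosome 22 and arose by duplication, and several of them are known to respond to interferon-γ and TNF-α in other cell types such as endothelium, through NF-κB and interferon-regulated transcription factors.

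The 6 genes spanned chr22:35648395-36267530 (GRCh38), a stretch of 619 kb. From the centromeric side, APOL6 (ENSG00000221963, plus strand, chr22:35648395-35668409) and APOL5 (ENSG00000128313, plus strand, chr22:35717872-35729483) stood apart from the other 4 members. APOL3 (ENSG00000128284, minus strand, chr22:36140330-36166177), APOL4 (ENSG00000100336, minus strand, chr22:36189124-36204840), APOL2 (ENSG00000128335, minus strand, chr22:36226203-36239954) and APOL1 (ENSG00000100342, plus strand, chr22:36253010-36267530) followed in that order. The merged exons measured 10.1 kb for APOL6, 5.90 kb for APOL3, 4.38 kb for APOL4, 3.52 kb for APOL1, 3.48 kb for APOL2 and 1.44 kb for APOL5. No member shared exonic bases with another gene (0% for each). At most 3.94% of a member's 50-base windows, in APOL1, occurred in any other gene, and at most 0.608%, also in APOL1, occurred in another member.

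Expression was given as FPKM (fragments per kilobase of gene, scaled to the library size), and 31992167 to 37897044 reads fell in genes per library. The library size used in the FPKM was 0.693 and 0.759 of these reads in TNF-α replicates 2 and 3 and 0.925 to 0.959 of them in the other 4 libraries, so that the same share of reads gave a higher FPKM in TNF-α replicates 2 and 3. TNF-α replicates 2 and 3 also stood apart from the other 4 libraries. Their correlations with the NC libraries were 0.879 to 0.910, against 0.979 to 0.980 for TNF-α replicate 1 and 0.991 to 0.993 among the NC libraries. Reads in genes longer than 8 kb were 16.6% of the total in replicate 2 and 17.9% in replicate 3, whereas the remaining libraries had 28.8% to 29.1%, so the fit on the FPKM scale was also run on the NC group and TNF-α replicate 1 alone, where 6.03% of the tested genes passed in either direction. For the other scales, ratios and shares the value of TNF-α replicate 1 is given on its own. Of the glial and glioma markers, 6 of 8 passed the filter on low values (VIM, NES, SOX2, CD44, EGFR and GFAP), with summed FPKM of 591 to 643 in the NC group and 705 to 1213 in the TNF-α group, sums made up largely of VIM. They did not move together. VIM was higher in every TNF-α library, with FPKM of 325, 341 and 362 in NC and 434, 974 and 850 in TNF-α libraries. Its log2 difference of 1.05 did not pass (limma adjusted p = 0.195). NES and CD44 had log2 differences of 0.36 and 0.029 and did not pass either (limma adjusted p = 0.241 and 0.877). GFAP, the astrocyte filament protein, fell, with FPKM of 8.16, 7.10 and 9.47 in NC and 1.58, 2.60 and 2.39 in TNF-α libraries (log2 difference -1.54, limma adjusted p = 0.0210). The call held with TNF-α replicate 1 alone (-1.83, limma adjusted p = 0.0016) and was lost without NC replicate 1, 2 or 3 (limma adjusted p = 0.159, 0.137 and 0.166) or TNF-α replicate 2 or 3 (0.0575 and 0.126). SOX2 and EGFR did not pass and were lower in TNF-α replicates 2 and 3 (22.6 and 30.4 FPKM for SOX2, 7.64 and 9.39 for EGFR) than in TNF-α replicate 1 (57.8 and 30.4 FPKM). The part of these marker differences in the results of the family was not tested. None of 6 macrophage and 5 endothelial markers passed it. PTPRC was listed at 0 in all 6 libraries, the macrophage markers summed to 0.869 to 1.21 in NC and 0.654 to 1.75 in TNF-α libraries, and the endothelial markers to 0.216 to 0.244 and 0.238 to 0.384.

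Of the family, APOL1, APOL2, APOL3 and APOL6 were expressed, whereas APOL4 and APOL5 were at or near the limit of detection in both groups. The test was run on 12136 genes, those that reached an FPKM of 1 in 3 or more libraries, and among these the mean FPKM in the NC group placed APOL2 at the 88.4th percentile, APOL6 at the 60.3rd, APOL1 at the 49.4th and APOL3 at the 10.9th. APOL3 rose after TNF-α and was the sole member past the threshold (limma on log2(FPKM + 1), Benjamini-Hochberg adjusted p under 0.05 over all 12136 genes). This was 1 of 4 tested members, beside 0.717% of all tested genes called higher. APOL1 had higher values in every TNF-α library than in any NC library, as 14.8% of tested genes did, without passing the test. APOL2 and APOL6 overlapped between the groups. The median log2 fold change of the 4 tested members was 0.69, against 0.04 over all tested genes.

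APOL3, an intracellular member known to permeabilize bacterial membranes in interferon-treated cells, had FPKM of 1.86, 1.09 and 1.60 in NC replicates 1, 2 and 3 and of 5.42, 8.30 and 9.20 in TNF-α replicates 1, 2 and 3. All 3 TNF-α libraries lay above all 3 NC libraries, with TNF-α replicate 1 the lowest of them. The reads behind these values numbered 397, 211 and 304 in NC and 1028, 1269 and 1318 in TNF-α libraries. The mean rose from 1.52 ± 0.393 (SD, n = 3) to 7.64 ± 1.97 (SD, n = 3), a 5.03-fold ratio of means. On the log2(FPKM + 1) scale, which understates the change of low genes, the difference was 1.76 (SE 0.22, limma adjusted p = 0.0279). It ranked 47 among the 12136 tested genes by log2 fold change and 70 by p. The exact two-sided permutation test gave p = 0.1, the smallest that 3 against 3 allows.

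The APOL3 call depended on the libraries in the fit, although its direction did not. Without NC replicate 1, 2 or 3 the limma adjusted p was 0.140, 0.184 and 0.200, and without TNF-α replicate 2 or 3 it was 0.116 and 0.150. Without TNF-α replicate 1 it was 1.7e-05, in a fit that called 79.4% of all tested genes. Across these 6 fits the log2 difference stayed between 1.63 and 1.96. With TNF-α replicates 2 and 3 both left out, APOL3 differed by 1.36 (limma adjusted p = 0.0108), where the lone TNF-α library was assumed to vary like the NC group. TNF-α replicate 1 alone was 3.57-fold above the NC mean FPKM, compared with 5.46-fold and 6.06-fold for replicates 2 and 3.

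**Figure D1:**
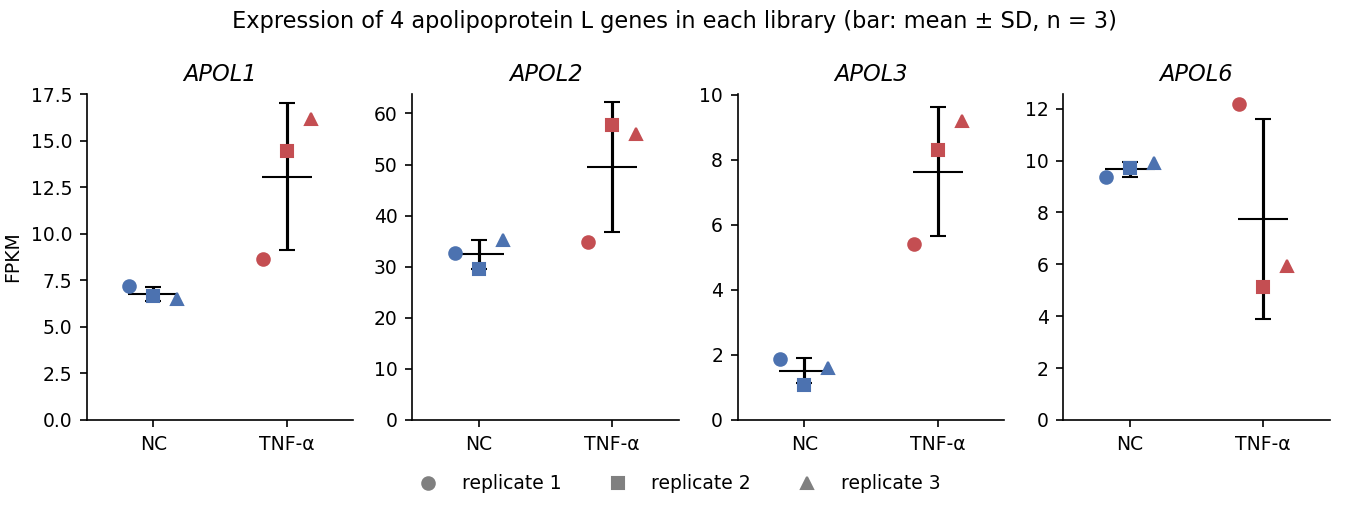
FPKM (linear axis from 0, a separate scale for each gene) of APOL1, APOL2, APOL3 and APOL6 in the 3 NC and 3 TNF-α libraries. Each symbol is a library, horizontal bars are means and error bars SD (n = 3). The 3 TNF-α libraries lie above the 3 NC libraries for APOL3 and APOL1, whereas TNF-α replicate 1 falls among the NC values for APOL2 and above them for APOL6.

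APOL1, the secreted member, had FPKM of 7.20, 6.64 and 6.48 in NC replicates 1, 2 and 3 and of 8.64, 14.4 and 16.2 in TNF-α replicates 1, 2 and 3. The groups did not overlap, but TNF-α replicate 1 lay closer to the NC libraries than to the other TNF-α libraries. The mean was 6.77 ± 0.374 (SD, n = 3) in the NC group and 13.1 ± 3.93 (SD, n = 3) in the TNF-α group, a ratio of 1.93. The difference of 0.81 on the log2(FPKM + 1) scale (SE 0.23) did not pass (limma adjusted p = 0.195, unadjusted p = 0.0119, exact permutation p = 0.1). With TNF-α replicates 2 and 3 left out, the difference was 0.31 (limma adjusted p = 0.104), and without TNF-α replicate 1 it was 1.07 (adjusted p = 2.1e-05), again in the fit where 79.4% of genes passed.

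APOL2, which is located mainly at the endoplasmic reticulum, was the most abundant member in every library. Its FPKM was 32.6, 29.5 and 35.2 in NC replicates 1, 2 and 3 and 34.9, 57.8 and 56.0 in TNF-α replicates 1, 2 and 3. TNF-α replicate 1 fell between NC replicates 1 and 3, while TNF-α replicates 2 and 3 were higher than every other library. The means were 32.4 ± 2.88 and 49.6 ± 12.7 (SD, n = 3 each), a ratio of 1.53. The log2 difference was 0.57 (SE 0.23, limma adjusted p = 0.195, exact permutation p = 0.2). It was 0.11 (adjusted p = 0.636) with TNF-α replicates 2 and 3 left out and 0.80 (limma adjusted p = 0.00012) without TNF-α replicate 1.

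APOL6, an intracellular member linked to apoptosis when overproduced, had FPKM of 9.35, 9.73 and 9.92 in NC replicates 1, 2 and 3. In TNF-α replicates 1, 2 and 3 it was 12.2, 5.14 and 5.94. The TNF-α libraries thus lay on both sides of the NC group, with replicate 1 above all NC values and replicates 2 and 3 below them. The means were 9.67 ± 0.287 and 7.75 ± 3.85 (SD, n = 3 each), with a log2 difference of -0.37 (SE 0.29, limma adjusted p = 0.345, exact permutation p = 0.4). With TNF-α replicates 2 and 3 left out the sign turned, to 0.30 (limma adjusted p = 0.0805). Without TNF-α replicate 1 the difference was -0.71 (limma adjusted p = 0.00011).

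The members' lengths ran alongside these library differences. APOL6 is among the genes longer than 8 kb, and over the 2369 tested genes of that class the median log2 ratio to the NC mean was 0.0047, -0.56 and -0.52 in TNF-α replicates 1, 2 and 3. The ratios of APOL6 were 0.30, -0.80 and -0.62. APOL1, APOL2 and APOL3 belong to the 4326 tested genes of 3 to 6 kb, whose median ratios were -0.0081, 0.19 and 0.16. Against these, APOL3 had 1.36, 1.90 and 2.03, APOL1 had 0.31, 0.99 and 1.14, and APOL2 had 0.11, 0.82 and 0.77 in TNF-α replicates 1, 2 and 3. APOL3 therefore stood at least 1.36 above the NC mean in each TNF-α library, whereas the ratio of APOL2 in replicate 1 was within the spread of the NC libraries.

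When each library's ratios were corrected for the GC content and length of the genes, the ratios of APOL3 were 1.33, 2.02 and 2.17 in TNF-α replicates 1, 2 and 3. APOL3 still passed (log2 difference 1.84, limma adjusted p = 0.0260). The ratios of APOL1 became 0.32, 0.52 and 0.75, which again lay above all NC libraries without passing (0.53, limma adjusted p = 0.104). Those of APOL2 became 0.12, 0.27 and 0.31 (0.23, limma adjusted p = 0.185), and those of APOL6 became 0.27, -0.12 and 0.01 (0.05, limma adjusted p = 0.743). The distance between TNF-α replicate 1 and replicates 2 and 3 shrank for APOL1, APOL2 and APOL6 and not for APOL3.

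**Figure D2:**
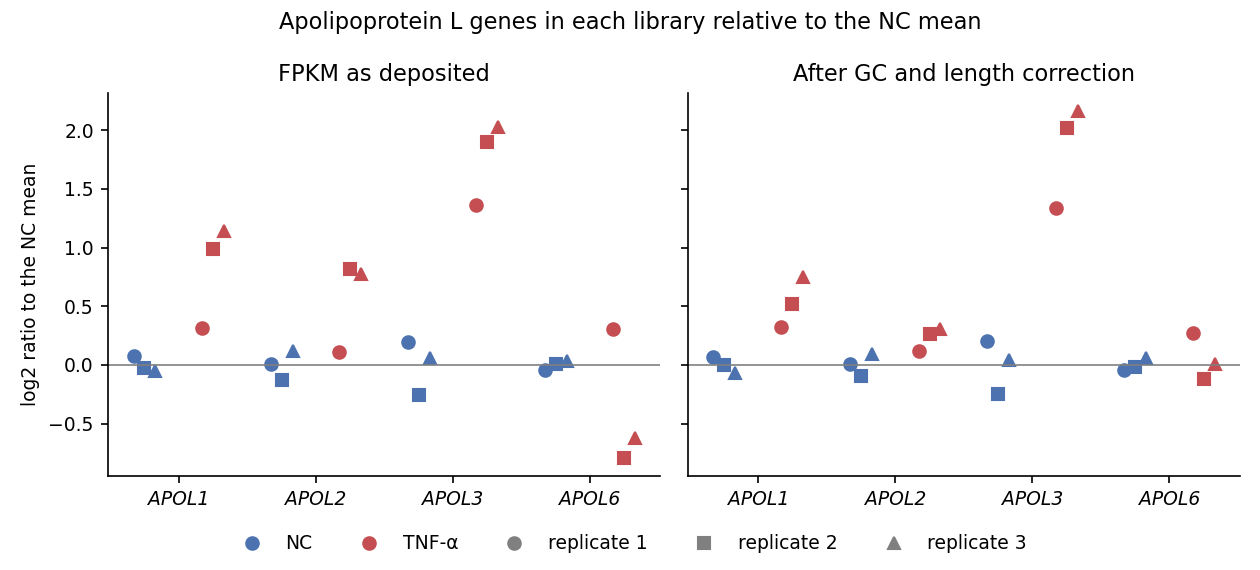
log2 ratio of each library to the NC mean, on log2(FPKM + 1), for the 4 tested members, as deposited (left) and after correction for GC content and gene length (right). Each symbol is a library. APOL3 keeps ratios of 1.33 to 2.17 in the TNF-α libraries after the correction, and APOL6 moves from -0.80 and -0.62 in TNF-α replicates 2 and 3 to -0.12 and 0.01.

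Scaling each library to the same sum (TPM) moved the median of all tested genes to -0.42 on the log2 scale, so the members were read against that shift. APOL3 had 5.82 ± 1.48 TPM in NC and 20.3 ± 2.31 TPM in TNF-α libraries (SD, n = 3 each), with a log2 difference of 1.66, or 2.07 above the median gene, and no longer passed (limma adjusted p = 0.0563). TNF-α replicate 1 alone had 20.3 TPM of APOL3, as much as the group mean. APOL1 had 26.0 ± 1.69 and 34.4 ± 4.55 TPM and lay 0.80 above the median gene, with 32.4 TPM in TNF-α replicate 1. APOL2 had 124 ± 8.81 and 131 ± 6.29 TPM, a difference of 0.075 that lay 0.49 above the median gene, with 131 TPM in TNF-α replicate 1. APOL6 had 37.1 ± 0.944 and 23.8 ± 19.0 TPM and lay at -0.47 relative to the median gene, with 45.6 TPM in TNF-α replicate 1. With limma-voom on the recovered reads, scaled to the reads in genes, the median gene moved to -0.21. On that scale APOL3 differed by 2.06 (limma adjusted p = 0.0256), APOL1 by 0.63, APOL2 by 0.31 and APOL6 by -0.69, and the last 3 did not pass. The direction of each of these members was therefore the same as on the FPKM scale, although the difference for APOL2 was close to 0 before the shift was taken off.

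APOL4 and APOL5 did not pass the filter and were not tested. APOL4 had 0, 8 and 0 reads in NC replicates 1, 2 and 3 and 4, 0 and 1 reads in TNF-α replicates 1, 2 and 3. APOL5 had 2, 0 and 0 reads in NC replicates 1, 2 and 3 and 1, 4 and 0 reads in TNF-α replicates 1, 2 and 3. In the libraries at 0 reads, such a count allows up to 3 reads, which corresponds to an FPKM of 0.0190 to 0.0264 for APOL4 and of 0.0636 to 0.0859 for APOL5, and these limits cover counting error only. A difference between the groups was not detectable at this depth for either gene.

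Comparing members within a library removed the library's own scale, though not a shift that depends on GC content or length. The ratios were taken before the GC and length correction, and APOL3 and APOL2 differ in both (46.9% and 53.0% GC). The ratio of APOL3 to APOL2, both FPKM and thus per length, was 0.0571, 0.0370 and 0.0455 in NC replicates 1, 2 and 3 and 0.155, 0.144 and 0.164 in TNF-α replicates 1, 2 and 3. The 3 TNF-α libraries were close to one another and all above the NC libraries, with a log2 difference of 1.75 (exact permutation p = 0.1, the smallest possible). The ratio of APOL3 to APOL1 was 0.259, 0.164 and 0.247 in NC and 0.627, 0.575 and 0.570 in TNF-α libraries, a log2 difference of 1.43 (exact permutation p = 0.1). Both ratios were thus higher in every TNF-α library, including replicate 1, than in any NC library. The ratio of APOL1 to APOL2 was 0.221, 0.225 and 0.184 in NC and 0.247, 0.250 and 0.288 in TNF-α libraries, which did not overlap either but differed by only 0.32 on the log2 scale (exact permutation p = 0.1). The ratio of APOL6 to APOL2 was 0.282 to 0.330 in NC libraries, and 0.349, 0.0890 and 0.106 in TNF-α replicates 1, 2 and 3, so the groups overlapped around replicate 1 (exact permutation p = 0.4). These are 4 of 6 pairwise ratios computed, none of which can reach 0.05 with 3 against 3, before or after adjustment.

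The summed FPKM of the family was 51.0, 47.0 and 53.2 in NC replicates 1, 2 and 3 and 61.2, 85.7 and 87.3 in TNF-α replicates 1, 2 and 3, a ratio of means of 1.55. On the TPM scale the sum was 197, 183 and 200.1 in NC and 229, 185 and 214 in TNF-α libraries. Its ratio of means was 1.08 with overlapping groups, whereas the groups did not overlap on the FPKM scale. Unlike the members above, this sum was not read against the median gene, which lay at -0.42 (log2) on the TPM scale. APOL2 made up most of the summed FPKM in each library, at 64.2% ± 1.75 in the NC group and 62.9% ± 5.28 in the TNF-α group (SD, n = 3 each). It was 57.1% in TNF-α replicate 1. The share of APOL3 was 2.99% ± 0.664 in the NC group and 9.69% ± 0.839 in the TNF-α group, with no overlap between the groups and 8.86% in TNF-α replicate 1. That of APOL1 was 13.5% ± 1.11 and 16.5% ± 2.21, with 14.1% in TNF-α replicate 1, level with the highest NC library. The share of APOL6 was 19.2% ± 1.29 in the NC group and 19.9%, 6.0% and 6.81% in TNF-α replicates 1, 2 and 3. The order of the mean levels was APOL2, APOL6, APOL1 and APOL3 in the NC group and APOL2, APOL1, APOL6 and APOL3 in the TNF-α group, where the ranges of APOL1, APOL3 and APOL6 overlapped. In RNA from a whole culture, a change in the number of cells that express a gene and a change in its RNA per cell cannot be told apart.

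**Figure D3:**
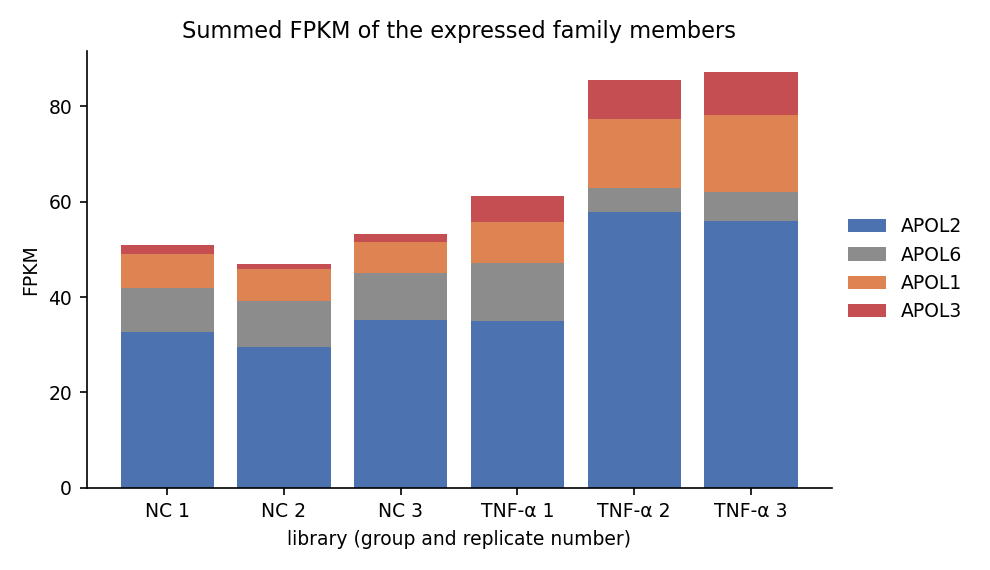
Summed FPKM of APOL2, APOL6, APOL1 and APOL3 in each library (linear axis from 0), where the height of a segment is the gene's FPKM. APOL4 and APOL5 are too low to be drawn. The APOL3 segment is thin in the NC libraries and makes up 9.69% of the family sum on average in the TNF-α libraries, and the APOL6 segment is narrower in TNF-α replicates 2 and 3 than in the other 4 libraries.

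No neighbor of the cluster passed the test with all 6 libraries. Of 47 other genes within 500 kb of the family, 11 were tested (limma), with 3 at an unadjusted p under 0.05, beside 24.2% of all tested genes, and a median log2 difference of 0.32. MYH9, which encodes the heavy chain of non-muscle myosin and lies next to APOL1, had a log2 difference of -0.11 (SE 0.21, limma adjusted p = 0.705). RBFOX2, a splicing regulator between APOL5 and APOL3, had one of -0.49 (SE 0.20, limma adjusted p = 0.195). Without TNF-α replicate 1, where 79.4% of all genes passed, 9 of the 11 neighbors passed, and with TNF-α replicate 1 alone, where 6.03% did, 1 passed, FOXRED2 (-0.38, limma adjusted p = 0.0435). APOLD1, a related gene outside the family, had FPKM of 2.97, 3.45 and 2.89 in NC and 3.11, 2.27 and 2.07 in TNF-α libraries, with a log2 difference of -0.25 (SE 0.15, limma adjusted p = 0.252).

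**Figure D4:**
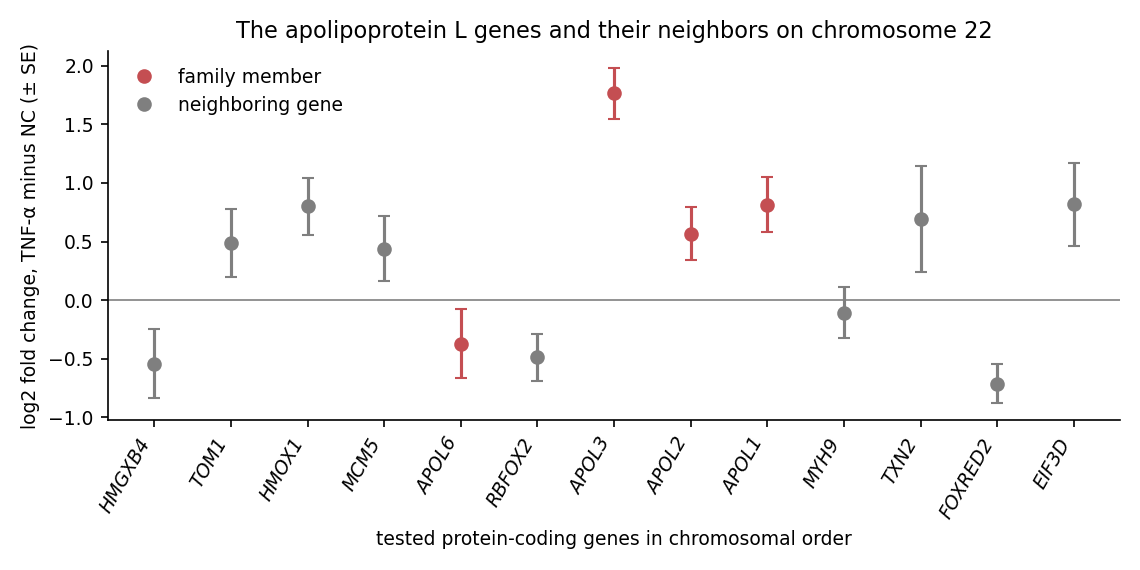
log2 fold change (TNF-α minus NC, on log2(FPKM + 1), error bars SE from limma) of the tested protein-coding genes in and around the family on chromosome 22, in chromosomal order and not to distance. Family members are in red and neighboring genes in grey. APOL3, at 1.76, is the highest point and the sole gene drawn that passed the threshold.

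Transcription factors of the NF-κB, IRF and STAT families, through which TNF-α and interferons act on their target genes, were listed beside the family. Of 14 such factors 12 were tested, 3 rose and none fell, beside 0.717% of all tested genes called higher, and 7 had groups that did not overlap with TNF-α higher, beside 14.8%. RELB, a subunit of the non-canonical NF-κB pathway, was 6.31, 5.90 and 8.34 in NC and 46.8, 129.7 and 104.8 FPKM in TNF-α libraries (log2 difference 3.48, limma adjusted p = 0.0185). NFKB2, whose product pairs with RELB, rose by 2.63 (limma adjusted p = 0.0173). IRF1, a factor shared by interferon-γ and TNF-α responses, was 4.61, 5.18 and 5.74 in NC and 11.9, 20.2 and 19.7 FPKM in TNF-α libraries (1.53, limma adjusted p = 0.0429). In each of these 3, as in APOL3, every TNF-α library had a higher FPKM than every NC library. In each of them TNF-α replicate 1 had the lowest FPKM of the TNF-α group. For APOL3 this order held on the FPKM scale only, since on the TPM scale APOL3 was lowest in replicate 2. The TPM of the 3 factors is not given here, so no contrast with APOL3 on that scale is drawn. NFKB1 was highest in TNF-α replicate 1 (18.9 FPKM, against 14.1 and 14.6 in replicates 2 and 3). On the deposited FPKM with all 6 libraries it was not called. After the GC and length correction NFKB1 passed too (0.75, limma adjusted p = 0.0434), and 4 factors of the list were called, beside 2.04% of all genes. The 3 calls of this list on the deposited FPKM dropped to 0 without NC replicate 1, 2 or 3 or without TNF-α replicate 2 or 3. They became 8 without TNF-α replicate 1, where 79.4% of all genes passed. They were also 0 with every gene above 0 tested. With TNF-α replicate 1 alone there were 4, the same 3 and NFKB1 (0.99, limma adjusted p = 0.0037), beside 6.03% of all tested genes.

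Interferon receptor subunits and their kinases gave no call among 7 tested of 9, with 4 at an unadjusted p under 0.05 (limma), beside 24.2% of all tested genes, and a median log2 difference of -0.01. Of the 7, 3 had groups that did not overlap with TNF-α higher, beside 14.8% of all tested genes. In 1 the groups did not overlap with TNF-α lower, as in 1858 of all 12136 tested genes. Without TNF-α replicate 1, 6 of the 7 passed, beside 79.4% of all genes, and with TNF-α replicate 1 alone 1 passed, IFNGR1 (0.49, limma adjusted p = 0.0361). Guanylate-binding proteins, interferon-induced GTPases that act beside APOL3 against intracellular bacteria, gave none among 4 tested of 7, with none at an unadjusted p under 0.05 and all 4 above 0. GBP4, below the filter and not tested, had FPKM of 0.149, 0.134 and 0.208 in NC and 1.37, 0.353 and 0.645 in TNF-α libraries. GBP6, also untested, stayed at or below 0.135 FPKM, and GBP7 was at 0 in every library. GBP1 was 28.8, 28.8 and 29.2 in NC and 48.3, 29.5 and 34.8 FPKM in TNF-α libraries. Its highest FPKM was thus in TNF-α replicate 1, where APOL3 had its lowest FPKM of the TNF-α group. On the TPM scale APOL3 had 20.3, 17.9 and 22.5 in TNF-α replicates 1, 2 and 3, with the lowest value in replicate 2. In the fit of the NC group with TNF-α replicate 1 alone, 3 of the 4 guanylate-binding proteins passed (GBP1, GBP3 and GBP5), beside 6.03% of all tested genes. After the GC and length correction 1 of them passed, GBP5 (0.69, limma adjusted p = 0.0388), beside 2.04% of all genes.

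Apolipoproteins of other families were largely not expressed, with 3 of 18 tested (APOO, APOOL and CLU) and none called, and none at an unadjusted p under 0.05 (limma). Of known partners of APOL1 and APOL3, 3 of 6 were tested and none was called or had an unadjusted p under 0.05. NCS1, a calcium sensor, and PI4KB, a phosphatidylinositol kinase, are both known to bind APOL3, and had log2 differences of 0.28 and 0.27 (limma adjusted p = 0.287 and 0.257). HPR and APOA1, the partners of APOL1 in serum lipoprotein particles, did not pass the filter in these cells. All 3 tested genes of either list passed without TNF-α replicate 1, beside 79.4% of all genes, and none passed with TNF-α replicate 1 alone.

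Across the 6 libraries, the genes whose log2(FPKM + 1) followed each member most closely were named by Pearson's r, with 6 points that share the 2 groups and the composition of TNF-α replicates 2 and 3, without which too few points remain for such a ranking. For APOL3 these were IL15RA (r = 0.996), which encodes a chain of the interleukin-15 receptor, MLKL, ROBO4, BTN3A2 and DUSP5. For APOL1 they were IFI44 (r = 0.998), XBP1, ANXA5, ISG20 and TEX10. For APOL2 they were CALR (r = 0.9996), ESS2, SLC5A6, FAM129B and ESRRA, and for APOL6 DDX21 (r = 0.999), ZBTB21, AFAP1, DZIP1 and BAZ1A. An r of at least 0.95 with APOL3 was reached by 2.44% of the other tested genes, compared with 9.49% for APOL1, 12.4% for APOL6 and 23.2% for APOL2. APOL3 thus shared its profile with the fewest genes of the 4. Among the members, r was 0.960 between APOL1 and APOL2, 0.939 between APOL1 and APOL3 and 0.889 between APOL2 and APOL3, whereas APOL6 had r of -0.847, -0.900 and -0.647 with APOL1, APOL2 and APOL3.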

How the data were processed

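RNA-seq libraries of U251 cells were assigned to the NC or TNF-α group and to a replicate number by their sample titles. The authors deposited FPKM per gene, 1 column per library, with gene lengths; how the library size was set is not given in the sources used here. The submitters' processing notes name HISAT2 2.0.5, StringTie 1.3.3b, featureCounts 1.5.0, DESeq2, edgeR and GATK 3.7, without saying which made this table. Use of strand in counting is not given in the sources used here. All 58735 genes matched GENCODE 29 (GRCh38) in identifier, name, position and merged exon length. FPKM multiplied by length gave whole reads for 100% of values (tolerance 0.05 reads), with 31992167 to 37897044 reads in genes per library.

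The 12136 genes that reached an FPKM of 1 in 3 or more libraries were tested by limma 3.58.1 (R 4.3.3, lmFit and eBayes with trend) on log2(FPKM + 1), two-sided, with Benjamini-Hochberg adjustment over all genes tested. Exact permutation tests were two-sided, over samples. The GC and length correction used natural splines with 5 degrees of freedom on 12131 genes. The fit was tested on simulated data. Alternatives were other pseudocounts, filters and scalings, TPM, limma-voom on the recovered reads (77 genes called), a replicate block, no intensity trend, and omission of libraries. Named genes were the 6 members, APOLD1, MYH9, RBFOX2, list genes past the threshold (at most 5 a list) and the 5 genes most like each tested member. VIM, NES, CD44, SOX2, EGFR, FOXRED2, NFKB1, IFNGR1, GBP1, GBP3, GBP4, GBP5, GBP6, GBP7, NCS1, PI4KB, HPR, APOA1 and the tested apolipoproteins were named after their values were seen. The members, lists and alternatives were chosen with earlier results of these data known. The table's 6 columns of other samples were not used, and promoter and protein sequences were not analysed here.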

Additional observations from a re-analysis of the deposited data

How the results depend on the processing

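Of 12136 tested genes 123 were called. The number was 58 with every gene above 0 tested (31662 genes), 58 on TPM, 185 after quantile normalization, 77 with limma-voom, 247 after GC and length correction, 732 with the NC group and TNF-α replicate 1 alone, and 10 to 9630 without 1 library each (the highest without TNF-α replicate 1). Members called, 1 as reported, were 0 with every gene tested and 0 on TPM, and 0 to 4 without 1 library each. The log2 difference of APOL3 was above 0 in all 18 alternatives (1.36 to 2.25, limma adjusted p from 1.7e-05 to 0.200) and passed in 10. It missed the threshold with every gene tested (1.76, adjusted p = 0.0886) and on TPM (1.66, adjusted p = 0.0563), and without 1 library each it was 1.63 to 1.96. Those of APOL1 and APOL2 were above 0 in all 18 and passed only without TNF-α replicate 1, with 0.65 to 1.07 for APOL1 and 0.44 to 0.80 for APOL2 without 1 library each. That of APOL6 was -0.71 to -0.16 without 1 library each, and turned to 0.054 after GC and length correction and to 0.30 with TNF-α replicate 1 alone. The cause of these differences between the alternatives was not tested. limma-voom moved the median of all genes by -0.21.

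With a replicate block, 24 genes, 0 members and 0 of the transcription factors were called, and APOL3 had 1.76 with adjusted p = 0.130. Deviations from the group means correlated at -0.014, -0.18 and 0.12 for numbers 1, 2 and 3, and not every library correlated best with its own number. With 3 libraries a group, and TNF-α replicate 1 apart from replicates 2 and 3, these correlations cannot show whether the libraries were paired. APOL4 and APOL5 had too few reads for any comparison. The reads limit the precision of APOL3 most in NC replicate 2, with 211 reads.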
